A study of Rattus norvegicus with 2 samples.

Results

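The ADAM and ADAMTS proteases and the TIMPs that inhibit them were followed in fetal rat skin between 2 stages of gestation. Members were all array genes whose name in the files begins with Adam and a digit, with Adamts, or with Timp and a digit, each represented by its brightest probe. There were 43 such genes among 18346 named genes on the arrays, and 33 of them were among the 14790 named genes that were detected. By family they were 20 ADAM genes, 16 ADAMTS genes, 4 ADAMTS-like genes and 3 TIMP genes. RNA came from the skin of Sprague Dawley rat fetuses, with no treatment or genetic change named, at day 16.5, which the labels call E16, and at day 18.5, which they call E19. The E16 RNA was a pool of 4 samples and the E19 RNA a pool of 3 samples, and the labels do not say how many fetuses or litters each sample holds. Both pools were hybridised together on 2 rat oligonucleotide arrays of 1 slide, with E19 in the red dye Cy5 on the first array and in the green dye Cy3 on the second. The second array therefore repeats the first with the dyes exchanged, and there was 1 RNA pool per stage.

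ADAMs are membrane-anchored metalloproteinases with a disintegrin domain. The catalytically active ones cut the outer parts of growth factors, cytokines, Notch receptors and adhesion molecules from the cell surface, which is called shedding. ADAMTS enzymes are secreted relatives with thrombospondin repeats that trim procollagens and cleave matrix proteoglycans such as versican and aggrecan, and ADAMTS-like proteins share those repeats but have no protease domain. TIMPs are small secreted proteins that block matrix metalloproteinases and, in the case of TIMP3, several ADAM and ADAMTS enzymes as well. In developing skin these proteins are known for remodelling the provisional matrix and for releasing ligands of the epidermal growth factor receptor.

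Between 71.5% and 74.3% of spots per channel were well above background, at most 15 were saturated, and no member was saturated. Levels below are normalised intensities, which are probe brightnesses after background correction and normalisation, and they can be compared between pools for a probe but not between probes. Differences are log2 ratios of E19 over E16, given as the mean ± SD of the 2 arrays, so the SD holds technical error only. With 1 pool per stage no difference has a test or a replicate check, and the number of arrays limits the precision. A gene is called higher in E19 or in E16 only if each of the 2 arrays put it 2-fold or more to that side. Where pools are said not to overlap, the 2 readings of 1 pool lie apart from the 2 readings of the other. Small ratios can meet this too, as for Adamts5 at -0.28. The share of all detected genes that meets it is not given here, so it marks nothing particular to a member. Because whole skin was pooled, fewer cells of a type and less RNA per cell cannot be told apart.

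Cell type markers of the 2 pools were unequal. Of 10 adipocyte markers, 9 were higher in E19 (median log2 ratio 2.14, led by Adipoq at 4.87 ± 0.14, Fabp4 at 4.81 ± 0.01 and Retn at 3.54 ± 0.26). Of 7 detected mast cell markers, 5 were higher in E19 (median 1.19, Hpgds 2.50 ± 0.10). Of 10 neuron markers, 8 were higher in E16 (median -2.67, Chgb -4.69 ± 0.02), as were 8 of 10 cartilage markers (median -1.87, Cnmd -4.16 ± 0.19) and 2 of 5 detected bone markers (median -0.48, Ibsp -3.42 ± 0.37). The bone list was mixed, with 2 of the 5 above 0 (Spp1 0.75 ± 0.21 and Runx2 0.11 ± 0.01). Of the cartilage markers, 1 was above 0 (Col9a1, 0.43 ± 0.02). The 7 epidermal markers on the arrays were all detected with a median of 1.13 and 2 higher in E19, although Krt14, a basal keratin, differed between the arrays at 3.27 and 0.74. Medians were 0.60 for 10 dermal fibroblast markers, 0.58 for 8 macrophage markers, 0.41 for 8 endothelial markers, 0.03 for 10 skeletal muscle markers and -0.35 for 7 Schwann cell markers, with 1, 2, 0, 2 and 0 of them higher in E19 and 0, 0, 0, 2 and 0 higher in E16. The part of these cell types in the differences described below was not tested.

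Few members differed by 2-fold between the pools. Of 33 detected members, 1 was higher in E19, which is 3.03%, against 4.14% of all detected genes. None of the 33 (0 members) was higher in E16, against 3.75% of all detected genes. The shares of all genes rest on current gene symbols, under which Adam8 is read from a probe of another name and is higher in E19. With members named that way, 2 were higher in E19 (Adam8 and Adamts13) and 0 in E16. The share in E19 therefore does not place the members below or above all genes. The members' median log2 ratio was -0.04 and that of all detected genes was 0.02. Within 1.5-fold lay 75.8% of detected members and 79.1% of all detected genes, and the median absolute log2 ratio was 0.31 for members and 0.25 for all genes. At 1.5-fold on both arrays, 5 members were higher in E19 (Adamts13, Adamtsl4, Adam15, Adam33 and Timp2) and 3 were higher in E16 (Adamts7, Adamts8 and Adamts9). The same limit took 9.55% of all detected genes in the E19 direction and 7.69% in the E16 direction. The arrays gave the same sign for 26 members and opposite signs for 7, whose mean was at most 0.18 in size. When ratios were centred on 10 spike-in controls, the median of all genes moved to -0.20 and that of the members to -0.26, Adamts13 no longer passed the 2-fold limit on both arrays, and Adamts8 and Adamts9 did so in the E16 direction.

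**Figure D1:**
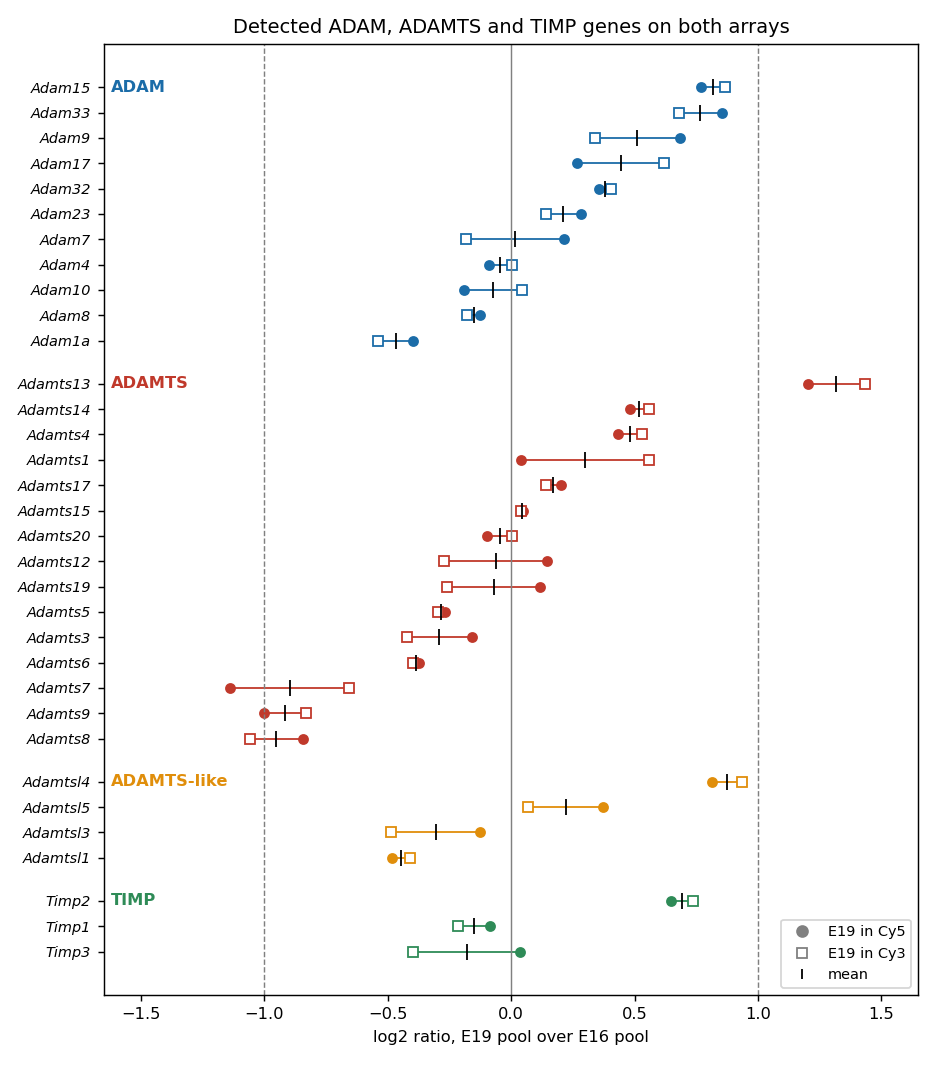
Log2 ratio of the E19 pool over the E16 pool (horizontal axis) for each of the 33 detected members, grouped by family. Filled circles are the array with E19 in Cy5, open squares the array with E19 in Cy3, ticks their mean, and dashed lines mark 2-fold; Adamts13 is the only member with both symbols beyond a dashed line, and Adamts7, Adamts8 and Adamts9 each have 1 symbol at or beyond the line on the E16 side.

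**Figure D2:**
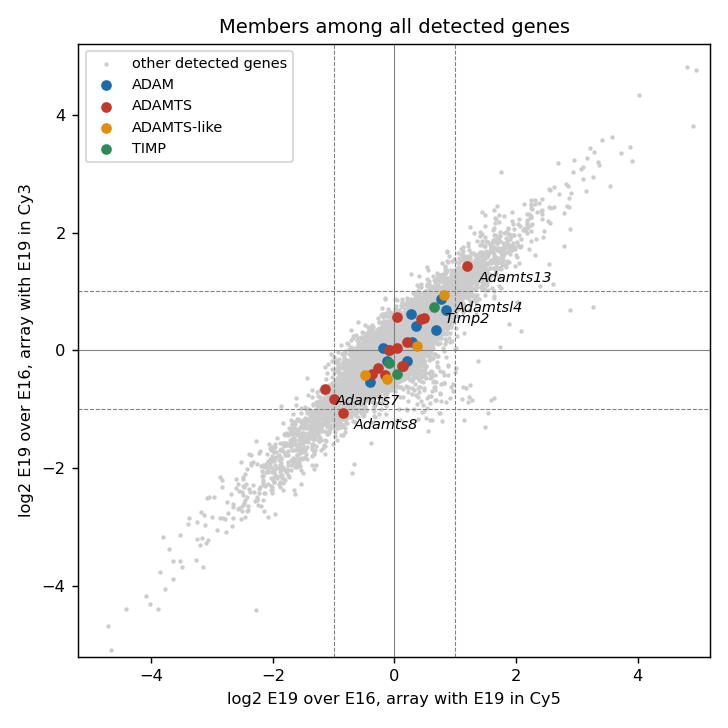
Log2 ratio of E19 over E16 on the array with E19 in Cy5 (horizontal) and with E19 in Cy3 (vertical) for all 14790 detected genes in grey, with the 33 detected members coloured by family. Dashed lines mark 2-fold; the members lie between -1.14 and 1.43 on either axis while other genes reach beyond 4 on the log2 scale in both directions.

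Promoter sequences are given for 3 members past 1.5-fold on both arrays, Adamts13 and Adamtsl4 on the E19 side and Adamts9 on the E16 side, so that their start sites can be compared. They come from the RefSeq table of build GRCr8, span 300 bases around the annotated start and are written 5′ to 3′ on the gene's strand, with capitals marking each GC box (GGGCGG, a binding motif of the Sp family of factors) on either strand. Adamts13 lies at chr3:30697104-30697403 on the + strand and holds 0 GC boxes. Adamtsl4 lies at chr2:185935747-185936046 on the - strand and holds 2, and Adamts9 lies at chr4:127019827-127020126 on the - strand and holds 1. Other members past 1.5-fold on both arrays also had such a promoter. Adam15 and Timp2 on the E19 side held 5 and 1 GC boxes, and Adamts7 on the E16 side held 0. The 3 that are printed therefore do not stand for their side.
Adamts13: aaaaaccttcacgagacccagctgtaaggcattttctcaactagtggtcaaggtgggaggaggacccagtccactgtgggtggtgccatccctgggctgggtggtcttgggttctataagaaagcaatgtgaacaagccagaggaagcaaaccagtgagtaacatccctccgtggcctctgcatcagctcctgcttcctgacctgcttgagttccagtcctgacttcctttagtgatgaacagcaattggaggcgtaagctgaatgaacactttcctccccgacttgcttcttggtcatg
Adamtsl4: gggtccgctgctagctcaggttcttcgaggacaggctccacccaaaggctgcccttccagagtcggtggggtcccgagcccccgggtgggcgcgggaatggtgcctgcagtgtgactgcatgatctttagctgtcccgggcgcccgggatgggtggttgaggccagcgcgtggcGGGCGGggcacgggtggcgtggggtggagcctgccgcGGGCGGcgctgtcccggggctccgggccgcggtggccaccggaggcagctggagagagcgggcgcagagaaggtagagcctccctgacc
Adamts9: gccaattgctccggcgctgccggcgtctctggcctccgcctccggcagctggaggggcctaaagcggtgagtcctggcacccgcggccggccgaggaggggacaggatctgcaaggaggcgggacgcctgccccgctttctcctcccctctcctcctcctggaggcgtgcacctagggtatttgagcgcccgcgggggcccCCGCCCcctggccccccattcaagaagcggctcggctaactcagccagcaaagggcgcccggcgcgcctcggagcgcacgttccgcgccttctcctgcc
The G and C content was 51.7% for Adamts13 and 72.3% for both others, and the CpG dinucleotides numbered 4 in Adamts13, 27 in Adamtsl4 and 30 in Adamts9.

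Of the 43 members, 26 had such a promoter, 24 of them detected. A GC box was present in 15 of the 24 detected members (62.5%), in 0 of the 2 that were not detected, and in 34.9% of all 27457 promoters of this length. The median G and C content was 66.5% for the detected members, 36.3% for the 2 not detected and 52.3% for all promoters. All promoters include those of genes that were not detected or not on the arrays. Promoters of all detected genes were not counted apart, so these shares do not show a trait of the family. The AP-1 motif (TGANTCA, both strands) was in 0 of 24 detected members and 7.33% of all promoters, the TATA box (TATAAA, both strands) in 2 of 24 (8.33%) and 14.3%, and the E-box (CANNTG, both strands) in 17 of 24 (70.8%) and 71.6%. Overlapping matches were each kept, and a match describes letters, not binding.

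Among the inhibitors, Timp2 had the largest difference of the 3. Timp2 binds membrane-type metalloproteinases and takes part in the activation of the gelatinase Mmp2. Its level was 68346 and 78255 in E19 on the first and second array and 43649 and 46942 in E16. The E19 pool was brighter on both arrays, with a log2 ratio of 0.69 ± 0.06 or 1.62-fold, short of 2-fold. Timp1, a secreted inhibitor of many metalloproteinases, had levels of 42673 and 38937 in E19 and 45337 and 45151 in E16. Its log2 ratio was -0.15 ± 0.09. The Timp1 probe was printed 10 times on each array, and its spots ranged from -0.18 to -0.04 on the first array (SD 0.04) and from -0.30 to -0.11 on the second (SD 0.06). All 10 spots on each array were therefore on the E16 side, by less than 1.5-fold. Timp3, which stays bound to the matrix, gave 521 and 445 in E19 and 508 and 586 in E16. Its arrays disagreed in sign, at 0.04 and -0.40.

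Of the 14 listed TIMP targets and partners, 2 were higher in E19 and 2 in E16, with a median of 0.09. On the E19 side were Mmp13 (3.50 ± 0.10), a collagenase, and Mmp3 (3.27 ± 0.11), which cleaves many matrix proteins. On the E16 side were Mmp11 (-1.25 ± 0.20) and the membrane-type enzyme Mmp16 (-1.16 ± 0.20). Mmp2 stood at 0.31 ± 0.02 and its membrane-type activator Mmp14 at -0.31 ± 0.20.

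Among the ADAMs, those listed as sheddases lay on both sides of 0. Of 7 such genes, 6 were detected, 4 had positive ratios on both arrays, and the median of the 6 was 0.48, with 0 past 2-fold on both. Of all detected genes, 52.5% had a mean ratio above 0, so a count from 6 genes shows no trait of the group. These values take Adam8 at -0.15, from the brightest probe of that name. Adam15, also called metargidin, had levels of 33314 and 35198 in E19 and 19575 and 19333 in E16. Its log2 ratio was 0.82 ± 0.07 (1.76-fold), and the pools did not overlap. Adam33, an enzyme of mesenchymal cells, had levels of 2154 and 1904 in E19 and 1193 and 1188 in E16. Its ratio was 0.77 ± 0.12 (1.70-fold), again without overlap. Adam9 had levels of 3723 and 3353 in E19 and 2318 and 2650 in E16, a ratio of 0.51 ± 0.24. Adam17, which releases tumour necrosis factor and ligands of the epidermal growth factor receptor, read 2712 and 3271 in E19 and 2254 and 2127 in E16. Its ratio was 0.44 ± 0.25, with the arrays at 0.27 and 0.62. Adam10, the main sheddase of Notch receptors, was at -0.07 ± 0.17 by its brightest probe, with 7359 and 9332 in E19 and 8394 and 9054 in E16. The 2 dimmer Adam10 probes were at 0.06 ± 0.35 and 0.11 ± 0.41, so all 3 had arrays of opposite sign. Adam28 was not well above background, and Adam8, whose probes disagree, is described with its other name below.

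The other ADAMs comprised 5 detected genes, none of them past 1.5-fold, and 8 that were not detected. Adam23, an ADAM without an active site that binds LGI proteins on neurons, was at 0.21 ± 0.10, and its relative Adam11 was not well above background. Of 11 ADAMs known mainly from testis or epididymis, 4 were detected and 7 were not (Adam2, Adam3, Adam5, Adam6, Adam18, Adam24 and Adam34). The largest of the detected ones in size was Adam1a, a chaperone of sperm surface proteins, at -0.47 ± 0.10, with 2100 and 2037 in E19 and 2766 and 2957 in E16. Adam32 was at 0.38 ± 0.04, Adam7 at 0.01 ± 0.28 and Adam4 at -0.04 ± 0.07. Adam32 rested on a dim probe (171 and 149 in E19, 134 and 112 in E16), and its ratio was 1.07 in the scanner program's own processed signals. Raw intensities of the 10 undetected members, Adamts16 included, ran from 36.0 to 111.

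Among 30 listed substrates of ADAM sheddases, all detected, 4 were higher in E19 and 3 in E16 (median 0.21). Those higher in E19 were betacellulin (Btc, 1.67 ± 0.15), transforming growth factor alpha (Tgfa, 1.35 ± 0.19) and epiregulin (Ereg, 1.35 ± 0.03), which are ligands of the epidermal growth factor receptor, and the interleukin-6 receptor Il6r (1.11 ± 0.06). Amphiregulin (Areg) was at 0.87 on the first array and 1.14 on the second. Hbegf and Egf, also ligands of this receptor, were at 0.24 ± 0.26 and -0.03 ± 0.17, so the ligands did not all differ. Those higher in E16 were the neural adhesion molecule L1cam (-1.74 ± 0.23), the ephrin receptor Epha3 (-1.63 ± 0.06) and N-cadherin (Cdh2, -1.61 ± 0.10), beside the neuron markers that were higher in E16. Of 7 trafficking partners of Adam10 and Adam17 on the arrays, 0 passed 2-fold on both arrays in either direction. Tspan17, a tetraspanin, was at 0.97 ± 0.09, Rhbdf2, which carries Adam17 to the cell surface, at 0.91 ± 0.06, and Tspan33 at -0.45 ± 0.24. All 4 LGI ligands were negative (median -0.60), of which Lgi1, a secreted neuronal protein, was higher in E16 at -1.74 ± 0.15. The 4 proprotein convertases, which remove the inhibitory prodomains, had a median of 0.27 with 0 past the limit, led by Pcsk6 at 0.62 ± 0.18.

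Adamts13 was the member with the largest difference. It cleaves von Willebrand factor in blood and is made mainly in liver. Its level was 734 and 838 in E19 and 319 and 310 in E16, so the pools did not overlap. The log2 ratio was 1.20 on the first array and 1.43 on the second, a mean of 1.32 ± 0.16 or 2.49-fold. That placed Adamts13 at the 97.3 percentile of all detected genes, but it was picked as the highest of 33 detected members. The top of a group of that size is high by selection, so the percentile does not set it apart. The Adamts13 ratio was 1.66 in the authors' deposited table. Its substrate Vwf was at 0.00 ± 0.18.

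The ADAMTS enzymes that cleave large proteoglycans spread to both sides of 0. All 7 were detected, with a median of -0.05 and a range of -0.95 to 0.48. Adamts9, which cleaves versican, had levels of 7978 and 8792 in E19 and 15958 and 15655 in E16. Its ratio was -0.92 ± 0.12, or 1.89-fold higher in E16, and the pools did not overlap. Adamts8 was dimmer, at 167 and 175 in E19 and 300 and 364 in E16. Its ratio was -0.95 ± 0.15 (1.93-fold higher in E16), and it reached -1.37 in the authors' deposited table. On the E19 side, the aggrecanase Adamts4 had levels of 361 and 386 in E19 and 267 and 267 in E16, a ratio of 0.48 ± 0.07. The other aggrecanase, Adamts5, was at -0.28 ± 0.02, with 780 and 667 in E19 and 939 and 819 in E16. Adamts1 differed between the arrays, at 0.04 and 0.56. Adamts15 was at 0.04 ± 0.00. Adamts20, whose mouse counterpart is known from white-belted coats, was at -0.05 ± 0.07.

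The COMP-cleaving pair was Adamts7 and Adamts12. Adamts7 had levels of 6177 and 7344 in E19 and 13605 and 11563 in E16. Its ratio was -1.14 on the first array and -0.65 on the second, a mean of -0.90 ± 0.34 or 1.86-fold higher in E16. Adamts12 was at -0.06 ± 0.29 with arrays of opposite sign. Their substrate Comp, a cartilage matrix protein, was higher in E16 at -2.00 ± 0.07. It is itself on the list of cartilage markers.

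Of the procollagen processing enzymes, Adamts14 was at 0.52 ± 0.05 (695 and 738 in E19, 497 and 501 in E16), and Adamts3, which also takes part in the activation of Vegfc, was at -0.29 ± 0.19 (188 and 176 in E19, 210 and 236 in E16). Adamts6, linked to fibrillin fibres, was at -0.39 ± 0.02, Adamts17 at 0.17 ± 0.04 and Adamts19 at -0.07 ± 0.27. The 4 detected partners of procollagen processing had a median of 0.07 and 0 past the limit, with Bmp1, the procollagen C-proteinase, at -0.49 ± 0.43, Ccbe1 at 0.40 ± 0.09 and Pcolce at 0.36 ± 0.02.

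Among 18 listed ADAMTS substrates, 1 was higher in E19 and 3 in E16 (median -0.27). Decorin (Dcn), a small proteoglycan of dermal collagen, was higher in E19 at 1.36 ± 0.04. Type II collagen (Col2a1, -2.69 ± 0.24), Comp and aggrecan (Acan, -1.31 ± 0.07), which are also 3 of the cartilage markers, were higher in E16. Versican (Vcan), the main large proteoglycan of fetal dermis, was at -0.51 ± 0.33. The fibrillar collagen Col3a1 read 1.73 on the first array and 0.06 on the second.

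**Figure D3:**
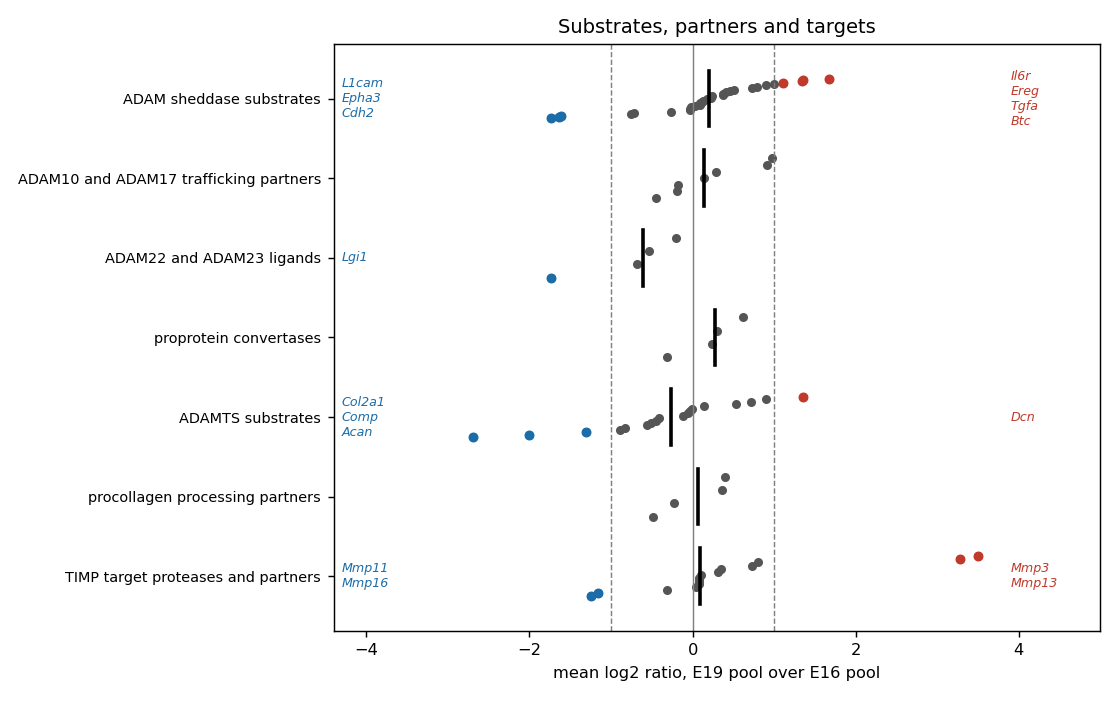
Mean log2 ratio of E19 over E16 (horizontal axis) for each detected gene of the 7 lists of substrates, partners and targets. Black bars are list medians, dashed lines mark 2-fold, red and blue points are genes at least 2-fold higher in E19 or E16 on both arrays, and their names stand at the right and left edge; the metalloproteinases Mmp13 and Mmp3 lie farthest to the right and Col2a1 farthest to the left.

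All 4 ADAMTS-like members were detected, with 2 on each side of 0. Adamtsl4, which binds fibrillin microfibrils, had levels of 298 and 309 in E19 and 169 and 162 in E16. Its ratio was 0.87 ± 0.08 (1.83-fold), without overlap of the pools, and the ratio from the authors' deposited table was 1.51. Adamtsl5 was at 0.22 ± 0.21. Adamtsl3 and Adamtsl1, also known as punctins, were at -0.31 ± 0.26 and -0.45 ± 0.05. Adamtsl1 had levels of 164 and 144 in E19 and 229 and 191 in E16, so its 2 pools did not overlap.

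**Figure D4:**
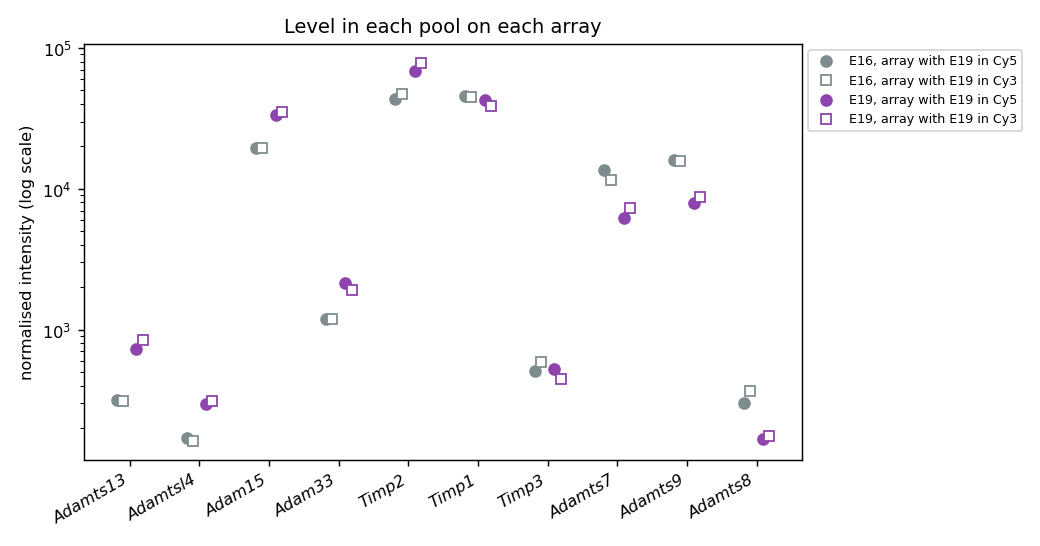
Normalised intensity (vertical axis, log scale) in the E16 pool (grey) and the E19 pool (purple) for 10 members, with filled circles for the array with E19 in Cy5 and open squares for the array with E19 in Cy3. Adamts13 runs from 310 to 319 in E16 and from 734 to 838 in E19, the Timp3 pools overlap, and the Timp1 pools stand apart by less than 1.5-fold.

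Members that sit side by side in the genome did not share a ratio in every case. In the RefSeq gene order Adamts1 and Adamts5 are adjacent with 0 protein-coding genes between them, and their ratios were 0.30 and -0.28. Adamts15 and Adamts8 are adjacent and were at 0.04 and -0.95. Adam9 and Adam32 are adjacent and were at 0.51 and 0.38, while Adam5, Adam3 and Adam18, which follow them, were not detected.

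Some genes of these families carry other names in the files and so fall outside the rule. They were picked with their values in view. The probes named RGD1566394, which is a RefSeq synonym of Adam8, a sheddase of leukocytes, gave different ratios from those named Adam8. The brighter RGD1566394 probe read 29585 and 33807 in E19 and 11199 and 10615 in E16, a log2 ratio of 1.54 ± 0.19 (2.90-fold). The dimmer one was at 1.58 on the first array and 1.41 on the second (2.82-fold). The 2 probes named Adam8 were at -0.15 ± 0.04 (11579 and 10484 in E19, 12634 and 11863 in E16) and -0.01 ± 0.09. By the positions in the files, probes under the 2 names lie 12.1 to 34.7 kb apart, and the probes named Adam8 lie 18.6 kb from each other. The RefSeq gene Adam8 is 12.8 kb long, so the probes do not all lie within a gene of that length. Which transcript each of them measures was not tested.

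An inhibitor and several ADAMTS genes were also found under other names. The 2 probes of LOC678834, described in the files as similar to TIMP-4, were at 1.12 ± 0.02 (1545 and 1630 in E19, 705 and 760 in E16) and 1.13 ± 0.10, both above 2-fold on both arrays. The 2 probes of RGD1305459, a synonym of Adamtsl2, which binds latent transforming growth factor beta binding protein, were at -1.06 ± 0.16 and -1.05 ± 0.05. The brighter Adamtsl2 probe read 265 and 262 in E19 and 511 and 589 in E16 and missed the limit on the first array at -0.95, whereas the dimmer one passed it on both. The procollagen N-proteinase Adamts2 (RGD1565950) was at 0.40 ± 0.13 by its brighter probe and 0.08 ± 0.06 by its dimmer one. Adamts10 was at 0.00 ± 0.03 and -0.37 ± 0.03 under its 2 names, and Adam12 was not well above background. With members defined by current RefSeq symbol instead, 35 were detected, 2 were higher in E19 (Adamts13 and Adam8), 0 were higher in E16 and the median was 0.01.

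**Figure D5:**
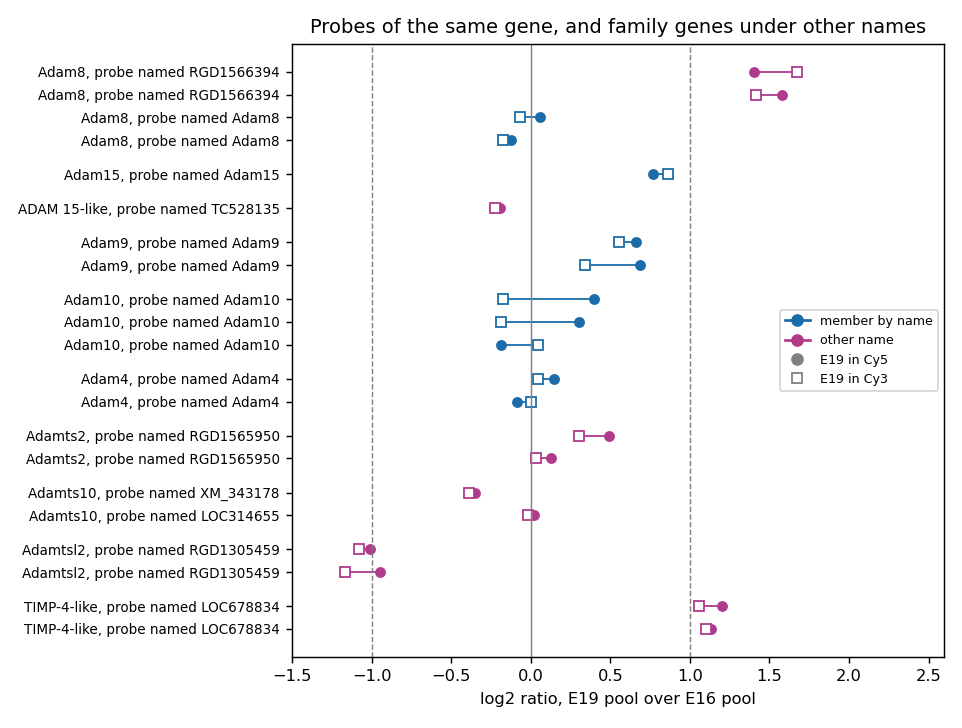
Log2 ratio of E19 over E16 (horizontal axis) on each array for single probes of genes with several probes or names, with filled circles for E19 in Cy5 and open squares for E19 in Cy3. Blue probes carry a member's name and purple probes another name; the purple Adam8 probes lie near 1.5 and the blue ones near 0, and both TIMP-4-like probes lie beyond the dashed 2-fold line.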

How the data were processed

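RNA from 2 pools of fetal rat skin was measured on 2 dye-swapped Agilent arrays of 45018 spots. Per the file headers, the authors used Agilent Feature Extraction 9.5.1.1 to measure the intensity of each spot and its surroundings, and the program also wrote processed intensities and log10 ratios. The authors' deposited table holds log10 ratios and p-values per sequence for the arrays together. How they were combined is not given in the sources used here. The direction of this table was taken as E19 over E16, since across genes it correlated with both arrays turned that way (r = 0.96 and 0.97), and it is printed here as log2.

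From the uncorrected intensities, background was corrected by normexp with an offset of 50 and each array's ratios were normalised by loess (limma 3.58.1, R 4.3.3), control spots having weight 0. The offset pulls ratios of dim probes towards 0. Spots marked as non-uniform or population outliers were left out. Both arrays hold the same pools, so they were averaged as 1 replicate. Levels are channel values after Aquantile scaling. A probe was detected when well above background for the same pool on both arrays, and the brightest detected probe stood for a gene. Across all detected genes the arrays correlated at r = 0.90, and 3 genes were 2-fold towards the same dye.

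Old names were matched to RefSeq (GRCr8). Of the 43 members, 18 matched by accession and 25 by symbol. Members named were those past 2-fold on both arrays, every TIMP, the 3 highest and 3 lowest per family, and up to 3 genes per list. Further members are given to account for the family. The members and lists were chosen with earlier results of these data known. A planned split by zinc-binding motif in the proteins was not analysed here. On simulated arrays of 43379 spots the background correction, normalisation and 2-fold limit were tested. There 100% of 100 changed spots were recovered at a true log2 ratio of 1.5, and 0 unchanged spots were called. The changed spots were of middle intensity, and the outlier marks, detection filter and choice of probe were not applied. Recovery of dim probes, or of ratios near the limit, was therefore not tested. Alternatives changed the background correction, normalisation, centring, fold limit, probe rule, filters, source of values and gene names, the last chosen after seeing the data.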

Additional observations from a re-analysis of the deposited data

How the results depend on the processing

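Counts and the median of detected members moved with several choices. Members higher in E19, 1 as reported, numbered 2 with an offset of 0 (Adamts13 and Adamtsl4), 2 with the scanner program's processed signals, 0 with spike-in centring, 5 at a limit of 1.5-fold, 0 at 3-fold, 3 in the authors' deposited table (Adamts13, Adamtsl4 and Adam32) and 2 with current RefSeq symbols. Members higher in E16, 0 as reported, numbered 1 with an offset of 0 (Adamts8), 1 with processed signals, 2 with spike-in centring, 3 at 1.5-fold and 1 in the authors' deposited table. On single arrays 1 to 2 members were higher in E16 (Adamts8 on the second array, Adamts7 and Adamts9 on the first) and 1 was higher in E19 on either. The median, -0.04, became -0.0018 with processed signals, 0.033 with median centring, -0.26 with spike-in centring, 0.025 with the mean of all probes, 0.087 in the authors' deposited table and 0.015 with current symbols, and 0.0054 to 0.047 on single arrays. The causes were not tested. Shares of all detected genes are given only for the reported setting and for 1.5-fold (9.55% higher in E19, 7.69% higher in E16). Spike-in centring moved the median of all detected genes as well, from 0.02 to -0.20. The counts under the other settings therefore do not show a trait of the members. Leaving out background subtraction or the detection filter, requiring both pools, and keeping marked spots moved none of the 3 values beyond the arrays' spread.

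Over 10 settings, 259 of 330 single member values stayed within the SD of the 2 arrays and 71 did not. The sign was kept under all 10 settings by 26 members and turned under at least 1 by 7 (Adam4, Adam7, Adam10, Adam23, Adamts15, Adamts17 and Adamts20), none above 0.21 in size. Adamtsl4 and Adam32 moved by over 1.5-fold with processed signals and in the authors' deposited table. No paired analysis was possible because each stage is 1 RNA pool.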

Other observations

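A probe named TC528135, which the files describe as part of ADAM 15, was at -0.21 ± 0.02 (1457 and 1398 in E19, 1668 and 1635 in E16), whereas the probe named Adam15 was at 0.82 ± 0.07.

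Adam2, a sperm surface protein, was not well above background in either pool. Its log2 ratio was -0.15 ± 0.00 after normexp with an offset of 50, -1.21 in the scanner program's processed signals and -1.17 in the authors' deposited table. The cause of the difference between these values was not tested.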
